A study of Mus musculus with 4 samples.

Results

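The comparison described here set intestinal mucosa from high-fat-fed C57BL/6J mice against mucosa from low-fat-fed ones, and it rested on 2 of the 4 arrays of the study. The other 2 arrays held the same diets in A/J mice. All mice were male and aged 10 weeks. Each of the 4 groups numbered 6 animals, kept on its diet for 2 weeks. Each array measured RNA pooled from 2 mice of average body weight, so every group was 1 pooled sample, no spread between animals was measured, and every difference below is a ratio of 2 arrays with no replicate check and no test. C57BL/6J is the inbred strain commonly used for diet-induced obesity because it gains weight readily on fat-rich food, and A/J is a strain that resists this weight gain. The part of the intestine and the composition of the diets are not given in the sources used here.

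The absorptive cells of the small intestine, the enterocytes, take up fatty acids and monoglycerides, rebuild them into triglyceride and export them in chylomicrons, and they also burn a share in mitochondria and peroxisomes. PPAR-alpha, a nuclear receptor activated by fatty acids, switches on many genes of fatty acid uptake, binding and oxidation in this epithelium. The same tissue holds a dense population of T cells within the epithelium, IgA-producing plasma cells beneath it, and a standing expression of interferon-induced genes that responds to viruses and gut bacteria.

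The arrays were Affymetrix Mouse 430A chips, on which a probe set, a group of short oligonucleotides, measures 1 transcript or a few similar ones. Each array was scaled to a trimmed mean of 500, with factors of 3.08 for the low-fat and 3.41 for the high-fat array, and scaled signals under 100 were raised to this floor before a ratio was taken. Of 22626 probe sets that were no array controls, 13987 lay above the floor on at least 1 C57BL/6J array. Of these, 12843 were annotated to 1 gene, 472 to several genes and 672 to none. Control probe sets for 18S ribosomal RNA, which has no poly(A) tail, differed between the arrays: the one at its 5′ end gave 11009.7 on the low-fat and 1675 on the high-fat array of C57BL/6J, against 218 and 84.4 in A/J. Its part in the results was not tested. The 3′ to 5′ ratio of the beta-actin controls was 0.975 on the low-fat and 0.999 on the high-fat array. Enterocyte genes gave some of the brightest signals, and none of the 26 probe sets of their list above the floor differed by 1.5-fold. In what follows a pair of signals is given low-fat first and high-fat second.

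Fabp1 and Fabp2, the fatty acid-binding proteins of enterocytes, gave 27351 and 27886 and 20128 and 22558. The Fabp1 values are of 1 of its 2 probe sets, and the median log2 ratio of high-fat over low-fat across both was 0.22. Vil1, which encodes the microvillar protein villin, gave 12909 and 12732. The labelled tissue thus carried its defining markers on both arrays, at signals less than 1.5-fold apart.

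At least 2-fold higher signals on the high-fat array were found for 142 probe sets, which is 1.02% of the 13987, and at least 2-fold lower signals for 87, which is 0.622%. At a 1.5-fold threshold 782 probe sets (5.59%) were higher and 618 (4.42%) lower. The median log2 ratio over all 13987 was -0.0008 and the central 90% lay between -0.56 and 0.61. Among the 142 higher probe sets, 87 were under 2.5-fold and 16 were at least 4-fold. Among the 87 lower ones, 65 were under 2.5-fold and 2 were at least 4-fold. Because 1 side lay at the floor for 26 of the higher and 16 of the lower probe sets, their folds are lower bounds, written as at least so many fold. Without scaling, the median log2 ratio shifted to -0.14 and the split of 2-fold calls turned from 142 higher and 87 lower to 96 higher and 170 lower. At the edge of the threshold, Pmf1 with 377 and 188 was just counted, and a probe set shared by Gapdh and its pseudogene Gapdh-ps15 with 383 and 192 was just not.

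**Figure D1:**
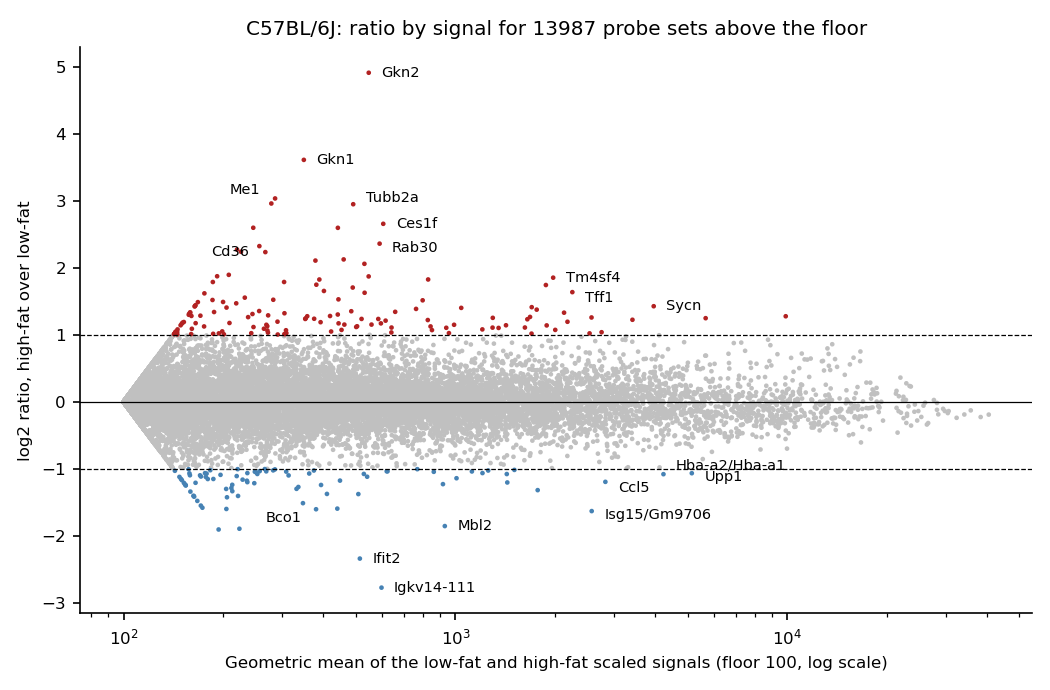
Log2 ratio of the C57BL/6J high-fat over the low-fat array (vertical axis) against the geometric mean of both scaled signals (horizontal axis, log scale) for 13987 probe sets, with red for at least 2-fold higher, blue for at least 2-fold lower and dashed lines at 2-fold. Gkn2 and Gkn1 stand highest, Igkv14-111 and Ifit2 lowest, and the wedge at the left edge is made by the floor of 100.

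Part of the genes that take up and oxidise fatty acids gave higher signals with fat. Of 37 probe sets on a list of PPAR-alpha targets, 16 passed 1.5-fold upward and 0 downward, with a median log2 ratio of 0.49, against -0.0008 over all probe sets. The median of this list was positive under each alternative tried, from 0.35 to 0.61. Mitochondrial beta-oxidation had 9 of 31 probe sets past 1.5-fold upward and 0 downward (median 0.37), and peroxisomal oxidation and assembly had 9 of 32 higher and 0 lower (median 0.32). The 3 lists share genes, so their counts are not independent.

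Uptake came first. Cd36, a membrane receptor for long-chain fatty acids, had 2 probe sets: 1450883_a_at gave 123 and 579.8, 4.70-fold higher, and 1423166_at gave 131 and 364, 2.77-fold higher. Both lay far below their A/J signals of 1211 and 2369 and 1193 and 2891. Slc27a2, a very-long-chain acyl-CoA synthetase that also acts as a fatty acid transporter, gave 1090.5 and 2829 (2.59-fold higher). On the list of uptake and binding, 3 of 19 probe sets passed 1.5-fold, all 3 higher and all of Cd36 or Slc27a2.

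The carnitine route carries long-chain fatty acids into mitochondria. Its entry enzyme Cpt1a gave 966 and 1764 (1.83-fold higher), and its second probe set, near the floor, 93.2 and 108. The carnitine-acylcarnitine translocase Slc25a20 gave 1224 and 1956 (1.60-fold higher) and 490.2 and 662 (1.35-fold higher). Bbox1, the last enzyme of carnitine synthesis, gave 272 and 885, 3.26-fold higher. Crat, carnitine acetyltransferase, gave 507 and 921 (1.82-fold higher) with its brighter and 139 and 128 (1.09-fold lower) with its dimmer probe set.

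Within mitochondria, members of the dehydrogenase step differed in size. Acadl, long-chain acyl-CoA dehydrogenase, gave 1661 and 3973 (2.39-fold higher), and Acadm, the medium-chain enzyme, 2893 and 3421 (1.18-fold higher). All 3 probe sets of Acaa2, the mitochondrial 3-ketoacyl-CoA thiolase, passed 2-fold, with 640.2 and 1691, 1268 and 2794, and 1922 and 3948. Acad11, another acyl-CoA dehydrogenase, was less even, since 1454647_at gave 955 and 2109 (2.21-fold higher) and the brighter 1433545_s_at 1781 and 2345 (1.32-fold higher).

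In peroxisomes, which shorten very-long-chain and branched fatty acids, the thiolase Acaa1b gave 1074 and 2522 (2.35-fold higher), while 2 probe sets it shares with Acaa1a were 1.30-fold and 1.38-fold higher. The bifunctional enzyme Hsd17b4 gave 1779 and 3611 and 733 and 1399 with its 2 probe sets, 2.03-fold and 1.91-fold higher. Acox2, the branched-chain acyl-CoA oxidase, was dim at 109.8 and 248 (2.26-fold higher). Pex11a, a peroxisome division factor and PPAR-alpha target, gave 293 and 607 with 1 probe set (2.07-fold higher) but 1412 and 1499 with its brighter one (1.06-fold higher). Its 2-fold count thus rests on the dimmer probe set. Ehhadh, on this list and on that of PPAR-alpha targets, gave the lowest log2 ratio of both, -0.25.

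The acyl-CoA thioesterases and Cyp4 omega-hydroxylases could be read mostly through probe sets that cannot separate close relatives. The probe set shared by Acot2 and Acot1, neighbouring thioesterase genes that free fatty acids from their CoA esters, gave 104 and 490.4 (4.72-fold higher) and in A/J 113 and 816. Probe sets of a single one of these genes were dimmer in C57BL/6J, with 72.3 and 148 for Acot1 (at least 1.48-fold higher) and 52.0 and 157 for Acot2 (at least 1.57-fold higher). The probe set shared by Cyp4a31 and Cyp4a10, fatty acid omega-hydroxylases, gave 68.9 and 366 in C57BL/6J (at least 3.66-fold higher) and 179.7 and 2679 in A/J. That high-fat signal in C57BL/6J lay far below the one in A/J. A further shared probe set, of the omega-hydroxylases Cyp4f37 and Cyp4f16, was bright at 2141 and 3943 (1.84-fold higher).

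Other responders of the same receptor were near the floor on low fat. Pdk4, the kinase that turns off pyruvate dehydrogenase when fat is burned, gave 67.3 and 483 (at least 4.83-fold higher). Aquaporins that pass glycerol were alike: Aqp3 gave 35.1 and 280.4 and 69.5 and 227 with its 2 probe sets, and Aqp7 65.8 and 345. Plin2, the coat protein of lipid droplets, was brighter at 2956 and 5315 (1.80-fold higher).

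Triglyceride synthesis and chylomicron genes were mostly level. Of 35 probe sets, 3 passed 1.5-fold upward and 0 downward: Plin2, 1 probe set of Dgat2 with 3197 and 5159, and 1 of Lpin2 with 343 and 549.8. Dgat2 makes triglyceride from diglyceride, and its second probe set gave 4503 and 6351 (1.41-fold higher). Mogat2, the monoglyceride acyltransferase of fat absorption, gave 9662 and 9726. Mttp and Apob, which assemble the chylomicron, gave 17612 and 19019 and 14107 and 14616. Each of these last 3 was bright and within 1.1-fold between the arrays.

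**Figure D2:**
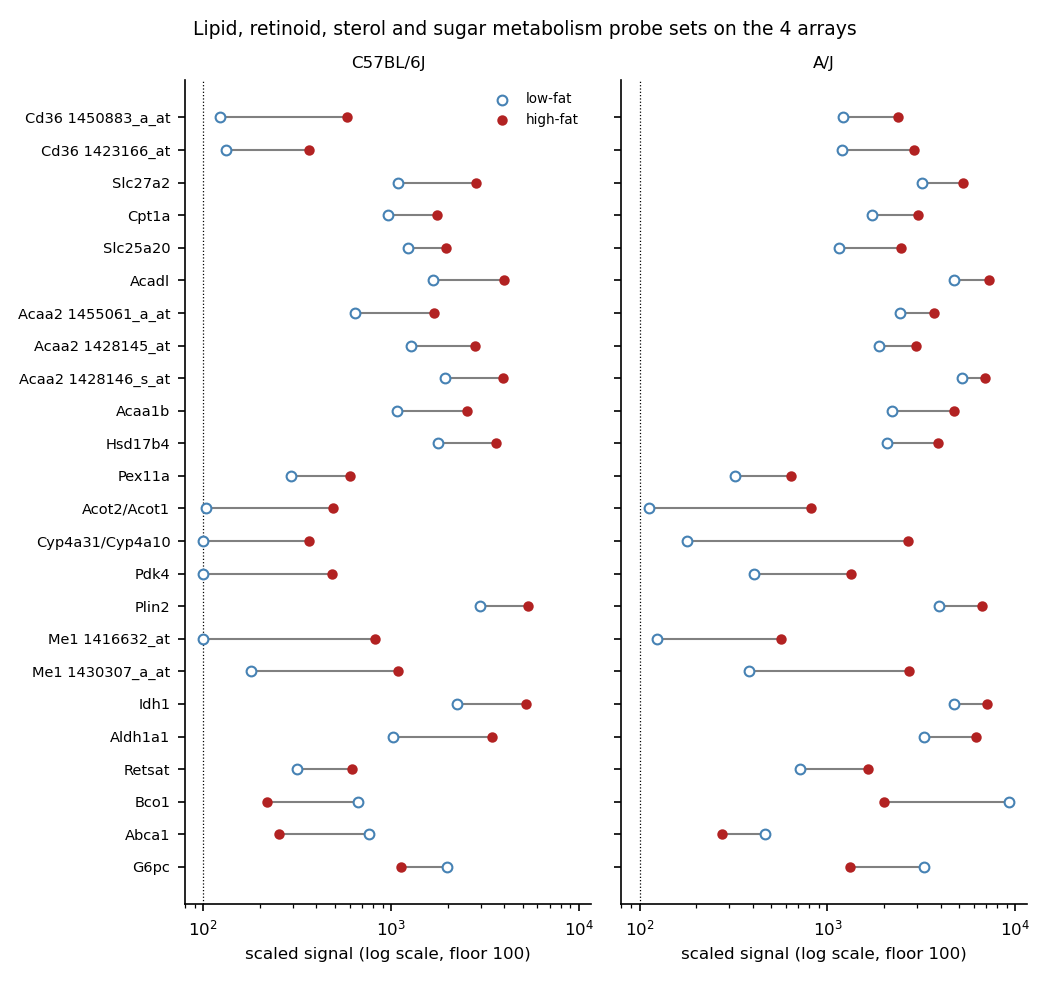
Scaled signals (log scale, values under 100 drawn at the floor) of metabolism probe sets on the low-fat (open circles) and high-fat arrays (filled circles), 1 array each, with C57BL/6J on the left and A/J on the right. The 2 probe sets of Cd36 lie between 123 and 579.8 in C57BL/6J and above 1000 in A/J, while Bco1, Abca1 and G6pc are lower on high fat in both strains.

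Me1, cytosolic malic enzyme, which makes NADPH, gave 179.9 and 1087 with 1430307_a_at (6.04-fold higher) and 26.4 and 819 with 1416632_at (at least 8.19-fold higher). Idh1, the cytosolic isocitrate dehydrogenase that also makes NADPH, gave 2233 and 5216 and 1261 and 2224, 2.34-fold and 1.76-fold higher. H6pd, which makes NADPH inside the endoplasmic reticulum, gave 188 and 392 (2.09-fold higher). On the list of lipogenesis, NADPH and desaturation, 4 of 30 probe sets were at least 1.5-fold higher, all of Me1 or Idh1, and 1, the desaturase Scd2 with 293 and 175, was lower. Its median of 0.05 turned to -0.09 without scaling.

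In cholesterol synthesis 2 of 30 probe sets passed 1.5-fold upward and 0 downward. Msmo1, the sterol C4-methyl oxidase, gave 1081 and 2601 (2.41-fold higher), and Idi1, isopentenyl diphosphate isomerase, 139.9 and 212 (1.51-fold higher), with 972 and 1113 for its brighter probe set. The median of that list, 0.14, turned to -0.04 without scaling.

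The list of sterol efflux and bile acids was mixed, with 2 of 14 probe sets past 1.5-fold upward and 3 downward (median -0.32). The 3 lower ones were of Abca1 and Abcg1, and the 2 higher ones of Nr0b2 and Scarb1. Abca1, which loads cholesterol onto apolipoprotein A-I, gave 765 and 254 (3.01-fold lower) and 237 and 134 (1.76-fold lower) with its 2 probe sets. Abcg1, a second sterol exporter, gave 208 and 106 (1.96-fold lower). Both are known targets of the liver X receptors. Nr0b2, the bile acid-responsive repressor also called SHP, was higher at 95.9 and 307 (at least 3.07-fold higher).

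Retinoid genes showed 8 of 21 probe sets past 1.5-fold upward and 1 downward, with a median of 0.41 that stayed positive under each alternative tried. The lower one was Bco1, which cleaves beta-carotene into retinal, at 662 and 218 in C57BL/6J (3.03-fold lower) and 9248 and 1995 in A/J. Aldh1a1, a retinaldehyde dehydrogenase, gave 1023 and 3424 (3.35-fold higher), and its close relative Aldh1a7 439 and 1557 (3.54-fold higher). Because the 2 genes are near-identical in sequence, cross-hybridisation between their probe sets cannot be told apart from expression of each. Retsat, the retinol saturase, was alike with both probe sets, 1411 and 2651 and 317 and 619. Rbp2, the retinol-binding protein of enterocytes, was bright at 10382 and 17045 (1.64-fold higher). Scarb1, a receptor for lipoproteins and carotenoids, gave 554 and 863 with its brighter probe set (1.56-fold higher), while in A/J it gave 9018 and 3553.

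Detoxification genes were higher on fat in part of their families. Of 41 probe sets of conjugation enzymes and carboxylesterases, 10 passed 1.5-fold upward and 0 downward (median 0.33). Ces1f, a carboxylesterase that splits esters and triglyceride, gave 241 and 1520.5 (6.30-fold higher), and Ces2a 1102 and 2377 (2.16-fold higher). All 3 probe sets of Gstm1, a glutathione S-transferase, were close in ratio, with log2 values of 0.83, 0.86 and 0.86, but the mu-class genes are alike enough that Gstm1, Gstm2 and Gstm3 may share hybridisation. Akr1c13, an aldo-keto reductase, gave 470.5 and 1229.9 (2.61-fold higher), and the brighter probe set it shares with Akr1c12 2166 and 3574 (1.65-fold higher). Cyp2j6 gave 339 and 800.1 (2.36-fold higher), whereas Cyp1a1, the target gene of the aryl hydrocarbon receptor, gave 586 and 206 (2.85-fold lower). In A/J Cyp1a1 lay under the floor on both diets.

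Sugar handling leaned slightly lower. Of 22 probe sets, 2 passed 1.5-fold downward and 0 upward, with a median of -0.30. That median ran from -0.45 without scaling, which moves ratios down, to -0.27 under the alternatives tried. The 2 lower probe sets were of G6pc, glucose-6-phosphatase, at 1985 and 1126 (1.76-fold lower), and the hexokinase Hk2 at 924 and 595 (1.55-fold lower). Slc5a1, the sodium-glucose transporter of the brush border, gave 19141 and 14776 (1.30-fold lower), and Slc2a5, the fructose transporter, 2554 and 3518 (1.38-fold higher). Outside the list, the paralogs Slc5a4a and Slc5a4b of the sodium-glucose transporter family differed in direction: Slc5a4a gave 534 and 263 (2.03-fold lower) and Slc5a4b 229.7 and 557 (2.42-fold higher). A/J showed the same directions with 2243 and 1611 for Slc5a4a and 1376 and 2516 for Slc5a4b. This pair was picked out after its values were seen.

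Other high ratios came from genes of mixed function. Tubb2a, a beta-tubulin, gave 177 and 1366 (7.71-fold higher), and Rab30, a Golgi GTPase, 261 and 1338 (5.13-fold higher). Ltc4s, leukotriene C4 synthase, gave 220.5 and 961 (4.36-fold higher). Lipa, the lysosomal acid lipase, was higher with each of 3 probe sets, by 2.02-fold, 2.02-fold and 1.63-fold. Car4, a membrane-bound carbonic anhydrase, gave 375 and 833 and 281 and 694. Tm4sf4, a tetraspanin-like membrane protein, was the brightest probe set above 3.5-fold with no side at the floor, at 1036 and 3741 (3.61-fold higher). H2-Q10, a class Ib histocompatibility gene, gave 286 and 1047 (3.66-fold higher), and other class I probe sets, described below, went in both directions.

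**Figure D3:**
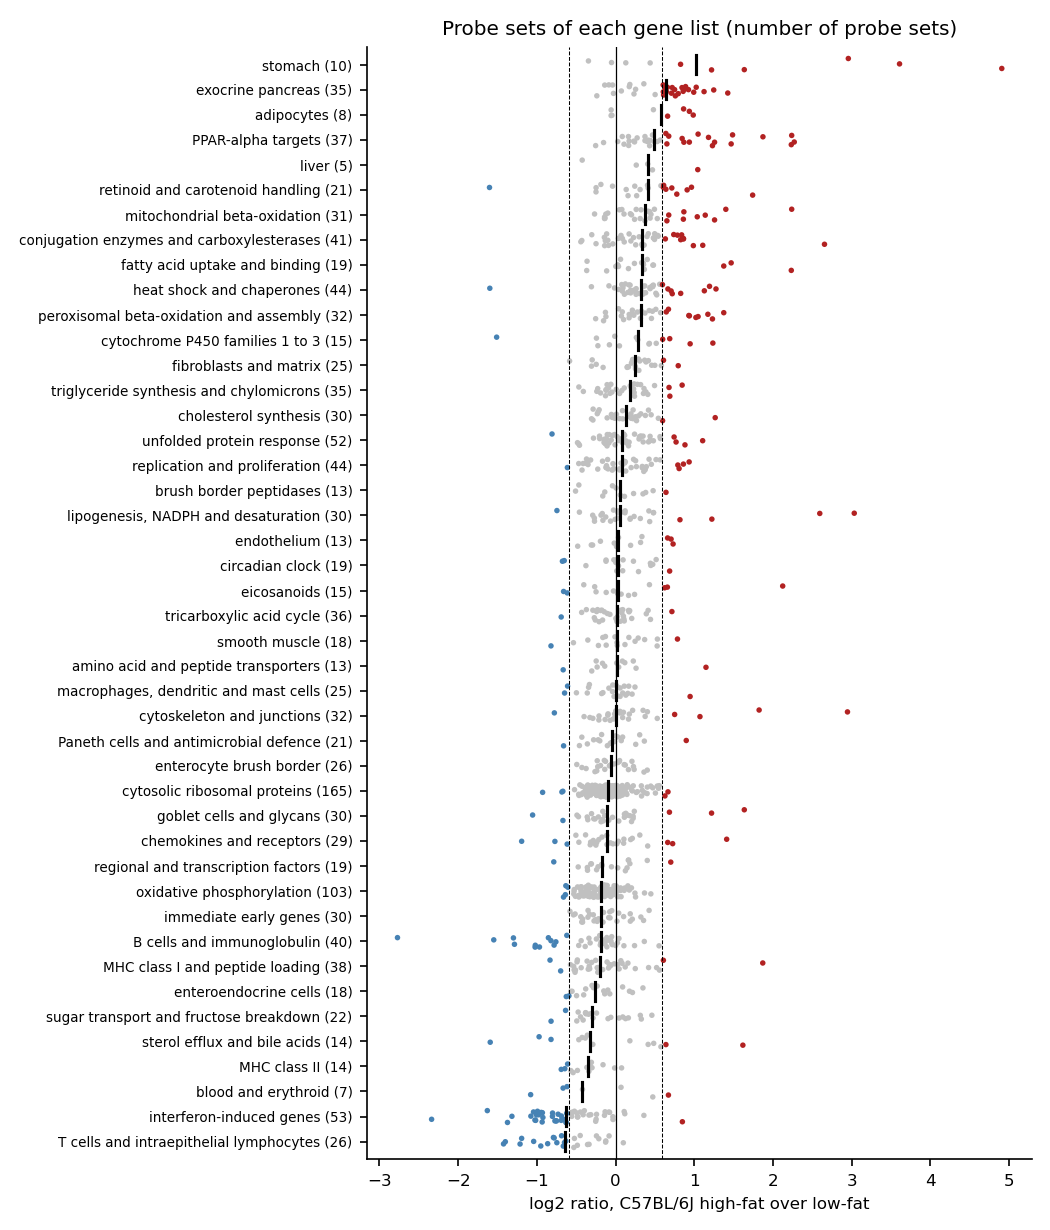
Log2 ratio of the C57BL/6J high-fat over the low-fat array for the probe sets of each gene list with at least 5 probe sets above the floor, with black bars at the medians, dashed lines at 1.5-fold, red for higher and blue for lower. PPAR-alpha targets have a median of 0.49 and interferon-induced genes of -0.63; points of 1 list share the same 2 arrays and are not replicates.

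Interferon-induced genes made the largest group of lower signals. Of 53 probe sets, 28 passed 1.5-fold downward and 1 upward, and 9 passed 2-fold downward and 0 upward, with a median log2 ratio of -0.63. In A/J 13 of 50 passed 1.5-fold downward and 0 upward, with a median of -0.32. Over all probe sets above the floor in A/J, 4.63% were at least 1.5-fold higher and 5.06% lower, and at 2-fold 0.765% were higher and 0.997% lower.

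Many promoters of such genes carry the interferon-stimulated response element, to which STAT and IRF factors bind. Its core, written as GAAANNGAAA and searched on both strands within the 250 bases before the start site, was found for 21 of the 37 listed genes that had a promoter in RefSeq's table for GRCm38.p6, out of 52 listed, which is 56.8%. It was found for 936 of all 27025 genes with a promoter there, which is 3.46%. A match is a description of the letters and shows no binding. The stretches below are shown because they belong to lower members of the list, together with Cxcl10, which was level. They run 5′ to 3′ in the direction of transcription, end before the start site, and have the core in capitals, read as TTTCNNTTTC where it lies on the other strand.
Ifit1, chr19:34640765-34640833, plus strand: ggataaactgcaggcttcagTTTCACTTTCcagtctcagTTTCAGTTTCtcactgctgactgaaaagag
Isg15, chr4:156200855-156200916, minus strand: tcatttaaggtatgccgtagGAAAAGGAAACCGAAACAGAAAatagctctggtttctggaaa
Bst2, chr8:71537567-71537622, minus strand: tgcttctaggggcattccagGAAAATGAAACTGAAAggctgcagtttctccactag
Oas3, chr5:120777705-120777754, minus strand: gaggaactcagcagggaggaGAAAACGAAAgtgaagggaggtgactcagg
Rsad2, chr12:26456543-26456592, minus strand: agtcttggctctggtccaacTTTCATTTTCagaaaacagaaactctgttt
Trim30a, chr7:104465200-104465249, minus strand: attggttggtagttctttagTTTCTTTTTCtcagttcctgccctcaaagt
Cxcl10, chr5:92349073-92349122, minus strand: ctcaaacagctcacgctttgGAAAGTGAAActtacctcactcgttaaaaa
Isg15 holds 3 overlapping matches, the farthest 78 bases before the start site, and Ifit1 holds 2. Usp18, Oas2, Dhx58 and Zbp1 are among the listed genes with no promoter in RefSeq's table. They were not searched for the core and are outside this comparison. Among listed genes with a promoter there and a probe set above the floor, the 18 with a match had a median log2 ratio per gene of -0.59 and the 12 without one -0.68. Cxcl10, with a match, gave 321 and 314 (1.02-fold lower).

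Among antiviral effectors, Ifit2, which binds viral RNA, gave 1157 and 229 (5.05-fold lower) and had no match in its window. Isg15, a ubiquitin-like modifier, was read by a probe set shared with Gm9706 at 4523 and 1463 (3.09-fold lower). Usp18, the protease that removes ISG15, gave 2790.4 and 1121 (2.49-fold lower). Rsad2, the antiviral enzyme viperin, gave 4639 and 2361, 1041 and 546 and 921 and 659 with its 3 probe sets. Ifit1 gave 5095 and 3163 (1.61-fold lower).

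The oligoadenylate synthetases, which activate RNase L on double-stranded RNA, and their relatives differed in size. Oas2 gave 1086 and 542, Oasl2 4623 and 2326 (1.99-fold lower) and Oas3 1276 and 733 (1.74-fold lower). Oas1a with 4510.0 and 3788 (1.19-fold lower) and Oasl1 with 4258 and 3371 (1.26-fold lower) did not reach 1.5-fold. Ifih1, a sensor of foreign RNA, gave 5779 and 2936 (1.97-fold lower). Dhx58, a related sensor, gave 659.6 and 255 (2.59-fold lower), 285 and 150.4 (1.90-fold lower) and, with its dimmest probe set, 113 and 145 (1.28-fold higher). Zbp1, a sensor of Z-form nucleic acids, gave 2138 and 1059 (2.02-fold lower) and 1332 and 946 (1.41-fold lower).

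Some groups of the list differed less. The interferon-inducible GTPases Igtp, Irgm1 and Irgm2 gave log2 ratios of -0.66, -0.63 and -0.31. The transcription factors Irf1, Irf7 and Irf9 gave -0.14, -0.09 and -0.03, while Stat2 gave -0.80 and -0.55 with its 2 probe sets. Gbp2, a guanylate-binding protein, gave 394 and 244 with 1418240_at (1.61-fold lower) and 132 and 238 with 1435906_x_at (1.80-fold higher). The latter was the single probe set of the list at least 1.5-fold higher. Samhd1, an antiviral nucleotide hydrolase outside the list, was also split, with 2311 and 1500.3 (1.54-fold lower) for 1418131_at and 99.3 and 271 (at least 2.71-fold higher) for 1420272_at.

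**Figure D4:**
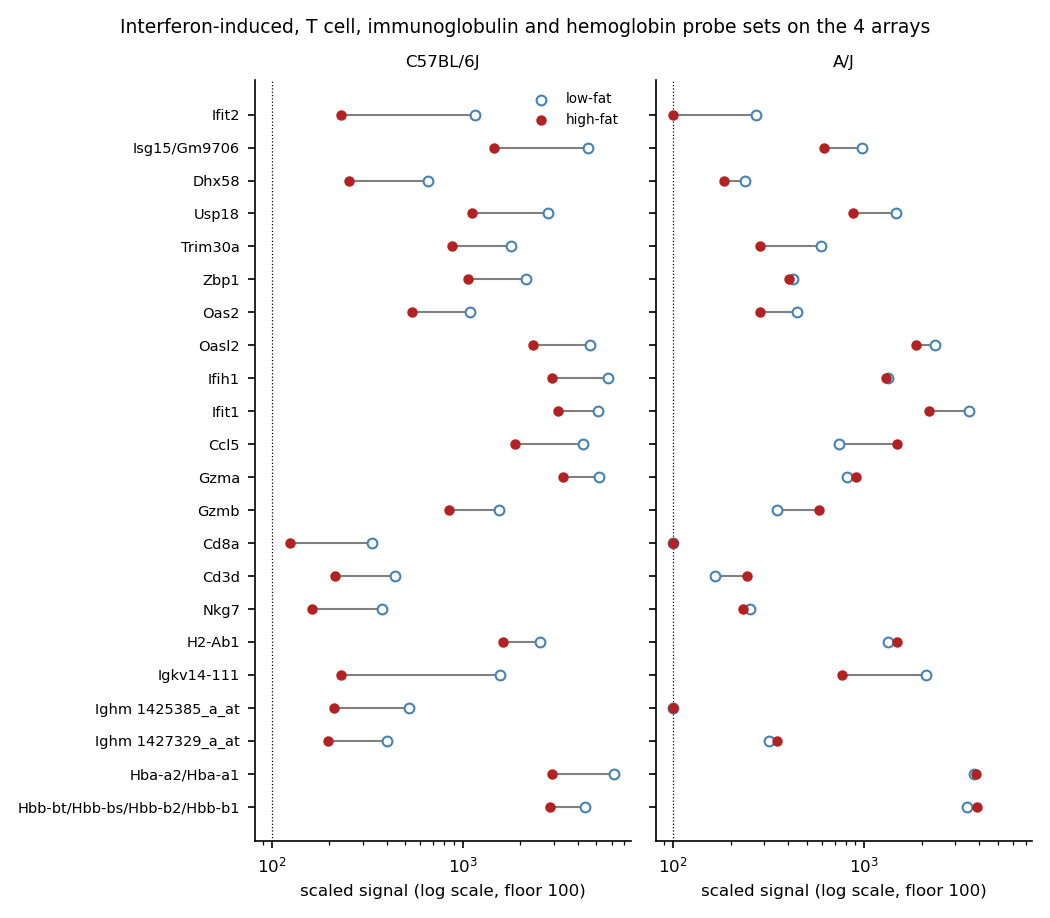
Scaled signals (log scale, values under 100 drawn at the floor) of interferon-induced, T cell, immunoglobulin and hemoglobin probe sets on the low-fat (open circles) and high-fat arrays (filled circles), 1 array each, with C57BL/6J on the left and A/J on the right. Drawn for each gene are its probe sets at least 2-fold apart in C57BL/6J, or else the 1 with the largest ratio. All of those drawn are lower on high fat in C57BL/6J, but by this choice higher ones of Ighm and Dhx58 are left out. In A/J, Ccl5, Gzmb, Cd3d, the Hbb probe set and some others are higher on high fat.

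T cell and intraepithelial lymphocyte markers were lower in a similar measure. Of 26 probe sets, 14 passed 1.5-fold downward and 0 upward, with a median of -0.64. In bulk mucosa, fewer cells of a type and less RNA per cell cannot be told apart. Cd8a, the co-receptor of cytotoxic T cells, gave 336 and 125 (2.68-fold lower) and 451 and 288 (1.57-fold lower). The T cell receptor subunits Cd3d and Cd3g gave 443 and 216 and 540.0 and 279.7. Ccl5, a chemokine of cytotoxic lymphocytes, was bright at 4275 and 1871 (2.29-fold lower). The killer proteins Gzma and Gzmb gave 5189.6 and 3352 and 1542 and 848, 1.55-fold and 1.82-fold lower. A gamma-delta T cell receptor probe set shared by Trgv4 and Trgv2 gave 595 and 339 (1.76-fold lower). In A/J the T cell list had a median of 0.08, with 3 of 25 probe sets past 1.5-fold upward and 1 downward, and Ccl5 gave 743 and 1480.3.

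Antigen presentation genes were split by class. MHC class II had 3 of 14 probe sets past 1.5-fold downward and 0 upward, among them both of H2-Ab1 with 2536 and 1624 and 2392 and 1569. Class I had 2 of 38 lower and 2 higher, shares close to those over all probe sets, and its members cannot be read one by one. A probe set shared by H2-K1 and H2-D1 gave 12694 and 7831 (1.62-fold lower), while one of H2-K1 alone gave 12707 and 18719.5 (1.47-fold higher) and one of H2-D1 alone 11774 and 16907 (1.44-fold higher). These 3 bright probe sets of near-identical genes went in different directions. The class Ib pair H2-Q9 and H2-Q7 gave 1585 and 890.2 (1.78-fold lower).

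Immunoglobulin probe sets were uneven. Of 40 on the B cell list, 12 passed 1.5-fold downward and 0 upward, with a median of -0.19. Igkv14-111, 1 kappa variable segment, gave the lowest ratio of all with no side at the floor, 1563 and 229 (6.82-fold lower). Ighm, the constant region of IgM, had 6 probe sets above the floor with log2 ratios of -1.30, -1.02, -0.76, -0.32, 0.37 and 0.55. The probe set shared by the lambda genes Iglc1 and Iglv1 gave 4101 and 2323 (1.77-fold lower) and in A/J 2842 and 4887.

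Hemoglobin signals were lower on high fat as well. A probe set shared by Hba-a2 and Hba-a1, the alpha-globin genes, gave 6148 and 2912 (2.11-fold lower), a second one 2639 and 1663 (1.59-fold lower), and the probe set of 4 beta-globin genes 4384 and 2861 (1.53-fold lower). In A/J these 3 gave 3768 and 3840.4, 2624 and 1819 and 3461 and 3917. The whole blood and erythroid list had 7 probe sets above the floor, 3 of them past 1.5-fold downward and 1 upward, with a summed signal of 14974 and 9292. The median of that list was -0.42 and turned to 0.47 over probe sets of 1 gene, which leaves out the shared hemoglobin probe sets. How much blood in the tissue had a part in the leukocyte results was not tested. Macrophage, dendritic and mast cell markers were level, with a median of 0.0077, 1 of 25 probe sets past 1.5-fold upward and 2 downward.

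Other probe sets at least 2-fold lower included some of secreted defence proteins. Mbl2, a mannose-binding lectin that tags microbes, gave 1764 and 489 in C57BL/6J (3.61-fold lower) and 293 and 90.5 in A/J. The acute-phase gene Saa1 gave 430.2 and 116 (3.71-fold lower) and 212 and 119 (1.79-fold lower). Pglyrp1, a peptidoglycan recognition protein, gave 1605 and 782 (2.05-fold lower), and Noxo1, an organiser of an epithelial NADPH oxidase, 1742 and 835 (2.09-fold lower). Socs3, the feedback inhibitor of cytokine signalling, was lower with each of 3 probe sets, by 2.59-fold, 1.85-fold and 1.58-fold. Upp1, uridine phosphorylase, was the brightest of the 2-fold lower probe sets at 7447 and 3563 (2.09-fold lower), with 4401 and 2473 in A/J. The Paneth cell list differed little, with 1 of 21 probe sets past 1.5-fold upward and 1 downward.

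Genes of organs next to the small intestine were present. Exocrine pancreas enzymes gave some of the brightest signals on the C57BL/6J arrays, with 23 of 35 probe sets past 1.5-fold upward and 0 downward (median 0.64, or 0.49 without scaling). The summed signal of the list was 294995 and 412119 in C57BL/6J, against 271233 and 73319 in A/J. Trypsinogen Prss2 gave 11154 and 17355 with its brightest probe set, and Sycn, a zymogen granule protein, 2412 and 6483 (2.69-fold higher) and 3679 and 8738 (2.37-fold higher). Pnliprp2 gave 569.5 and 1242 and Gp2, the zymogen granule membrane glycoprotein, 669.8 and 1363. Stomach genes had 6 of 10 probe sets past 1.5-fold upward and 0 downward. The gastrokines Gkn2 and Gkn1, proteins of the gastric surface mucus, were under the floor on low fat, Gkn2 with 38.1 and 3001 (at least 30.0-fold higher) and Gkn1 with 8.30 and 1219.6 and 7.07 and 777. The trefoil peptides Tff1 and Tff2 gave 1276 and 3965 and 541 and 1259.5, and the proton pump subunit Atp4b, a defining gene of parietal cells, 93.2 and 109. In A/J 5 of 8 stomach probe sets passed 1.5-fold downward and 0 upward, with 517 and 39.2 for Gkn2 and 501 and 17.4 for Tff2, while both Gkn1 probe sets lay under the floor on both A/J arrays. The part of carried-over pancreas or stomach in other results was not tested. Without both lists, and with the scaling computed without them, 135 probe sets were at least 2-fold higher and 87 lower, of which 133 and 86 were among the 142 and 87.

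Stress proteins were mildly higher. Of 44 heat shock and chaperone probe sets, 8 passed 1.5-fold upward and 1 downward, with a median of 0.32. Hsp90aa1, the stress-inducible HSP90, was higher with all 3 probe sets, by 2.29-fold, 1.51-fold and 1.48-fold. Hspa8, the constitutive HSP70, had probe sets far apart: 1455789_x_at gave 6348 and 15380.2 (2.42-fold higher), 1420623_x_at 10222 and 13229, 1420622_a_at 1188 and 1608, and the dim 1431182_at 355 and 117 (3.02-fold lower). The brightest 3 were higher and the dimmest was lower. The unfolded protein response list was near level, with a median of 0.09, although Herpud1, which aids degradation of misfolded proteins, gave 881 and 1898 (2.15-fold higher) and 1071 and 1337 (1.25-fold higher), and Atf4 gave 2873 and 1643 (1.75-fold lower).

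Few probe sets of housekeeping machinery passed the threshold. Of 103 oxidative phosphorylation probe sets, 0 passed 1.5-fold upward and 4 downward, with a median of -0.19. That median ran from -0.34 without scaling, which moves ratios down, to -0.15 under the alternatives tried. The lowest probe sets were Ndufa2 with 3140.1 and 1987, Atp5e with 5774 and 3714, Ndufb8 with 6274 and 4051 and Cox6c with 20534 and 13504, subunits of the respiratory chain and ATP synthase. In A/J the median of this list was 0.04. The 165 cytosolic ribosomal protein probe sets had a median of -0.10, 2 past 1.5-fold upward and 3 downward. Immediate early genes had none of 30 probe sets past 1.5-fold either way. The tricarboxylic acid cycle list had a median of 0.02 with 1 of 36 probe sets higher and 1 lower.

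Hormone genes of enteroendocrine cells had 2 of 18 probe sets past 1.5-fold downward and 0 upward (median -0.26). Ghrl, which encodes ghrelin, gave 379 and 246 (1.54-fold lower), and Pyy, peptide YY, 532 and 353 (1.51-fold lower). Gip, an incretin released after fat and sugar, was brighter at 4123 and 2812 (1.47-fold lower). Replication and proliferation genes had 4 of 44 higher and 1 lower, with both probe sets of the helicase subunit Mcm2 among the higher ones at 272 and 476 and 147 and 282.

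Among chemokines, Ccl20, which draws lymphocytes and dendritic cells through CCR6, was higher at 1040.0 and 2768 (2.66-fold higher), while A/J gave 482 and 203. Cxcl9, an interferon-gamma-induced chemokine, gave 790.3 and 464 (1.71-fold lower). The list had 3 of 29 probe sets past 1.5-fold upward and 3 downward.

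Probe sets annotated to several genes held 6 of the 229 that passed 2-fold. Besides those of Isg15 with Gm9706, Hba-a2 with Hba-a1, Acot2 with Acot1 and Cyp4a31 with Cyp4a10, they were Gml with Gml2 at 522 and 217 (2.41-fold lower) and Atrip with Trex1 at 888 and 433 (2.05-fold lower). Gml and Gml2 encode GPI-anchored proteins of the Ly6 family, and the probe set lay under the floor on both A/J arrays. Trex1, a DNA exonuclease that limits interferon signalling, overlaps Atrip, so the probe set may read either. Another 39 such probe sets lay between 1.5-fold and 2-fold, among them Apol9a with Apol9b at 1749 and 929, the complement genes C4a with C4b at 718 and 372, and a probe set of 10 clustered histone H2A genes at 6122 and 3986. For none of them can the gene behind the signal be named from the array.

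Probe sets with no gene in the annotation made up 10 of the 142 higher and 5 of the 87 lower. The highest, 1423858_a_at, gave 60.3 and 605 in C57BL/6J (at least 6.05-fold higher) and 186 and 1987 in A/J. Another, 1455869_at, gave 839 and 1999 in C57BL/6J and stayed under the floor in A/J. Of the lower ones, 1424631_a_at gave 798 and 368 and 1422242_at 768 and 365, the latter with 142 and 1296 in A/J.

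Different probe sets of 1 gene gave a measure of how far a single ratio can be read. Over 5818 pairs of probe sets from 2660 genes, all above the floor on both arrays, the 2 log2 ratios of a pair differed by a median of 0.25, 10% of pairs differed by over 0.67, and 2.48% by at least 1. Of 119 genes with a probe set of their own at least 2-fold higher, 68 had another one above the floor, and in 26 of these a second probe set was at least 1.5-fold higher. Of 77 genes at least 2-fold lower, 32 had another and 8 of them a second at least 1.5-fold lower. When the brightest probe set of such a gene was read, it passed 1.5-fold in the same direction for 40 of the 68 and 12 of the 32. The brightest probe set could be the one that was at least 2-fold, which then passes by selection. These last counts are therefore no separate check.

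Genes with 2 or more probe sets at least 2-fold higher were Acaa2, Aqp3, Car4, Cd36, Dipk2a, Gkn1, Lipa, Me1, Plscr1 and Sycn, and the single such gene on the lower side was Ighm. Actb, Otc and Becn1 rested on 1 dim probe set beside brighter ones that were level. Actb, beta-actin, gave 313 and 658 with 1419734_at (2.10-fold higher) but 28369.6 and 28062 with 1436722_a_at. Otc, ornithine transcarbamylase of the urea cycle, gave 160.2 and 409.6 (2.56-fold higher) and 2589 and 2800.1 (1.08-fold higher). Becn1, an autophagy factor, gave 222 and 111 (2.01-fold lower) and, with its brightest probe set, 1949 and 1812 (1.08-fold lower). Klk1, tissue kallikrein, gave 2072 and 983 (2.11-fold lower) with 1 probe set and 2047 and 2673 and 1907 and 2442 with the others, which were as bright and went the other way. Probe sets at least 1.5-fold apart in opposite directions were found in 14 of 2965 genes with 2 or more above the floor, among them Hspa8, Gbp2 and Samhd1.

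The share of 2-fold differences depended on brightness. With a mean signal of 200 to 500, 2.22% of 4063 probe sets passed 2-fold, and above 5000 it was 0.456% of 658, that is 3 probe sets: Hspa8, Sycn and Upp1. The SD of the log2 ratio across probe sets was 0.40 in the first range and 0.29 in the second.

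The A/J arrays, made in the same way and sharing no array with this pair, were set beside the 229 probe sets. Of the 142 higher ones, 26 were also at least 2-fold higher in A/J, which is 18.3% of them and 23.9% of the 109 such probe sets in A/J. Of the 87 lower ones, 9 were also at least 2-fold lower in A/J, 10.3% of them and 6.34% of the 142 in A/J. Over all probe sets above the floor in A/J, 0.765% were at least 2-fold higher and 0.997% lower. By sign alone, 100 of the 142 and 54 of the 87 had an A/J ratio in the same direction, and 8 of each had both A/J signals at the floor. The share with equal signs over all probe sets was not computed, so the sign counts have no reference beside them. Shared higher probe sets included Me1, Tubb2a, Ces1f, Rab30, Acot2/Acot1, Pdk4, Ltc4s, Kdelr3, Lamb3 and Tm4sf4, and shared lower ones Bco1, Ifit2, Mbl2, Igkv14-111 and Trim30a. The strains were not compared by a test.

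**Figure D5:**
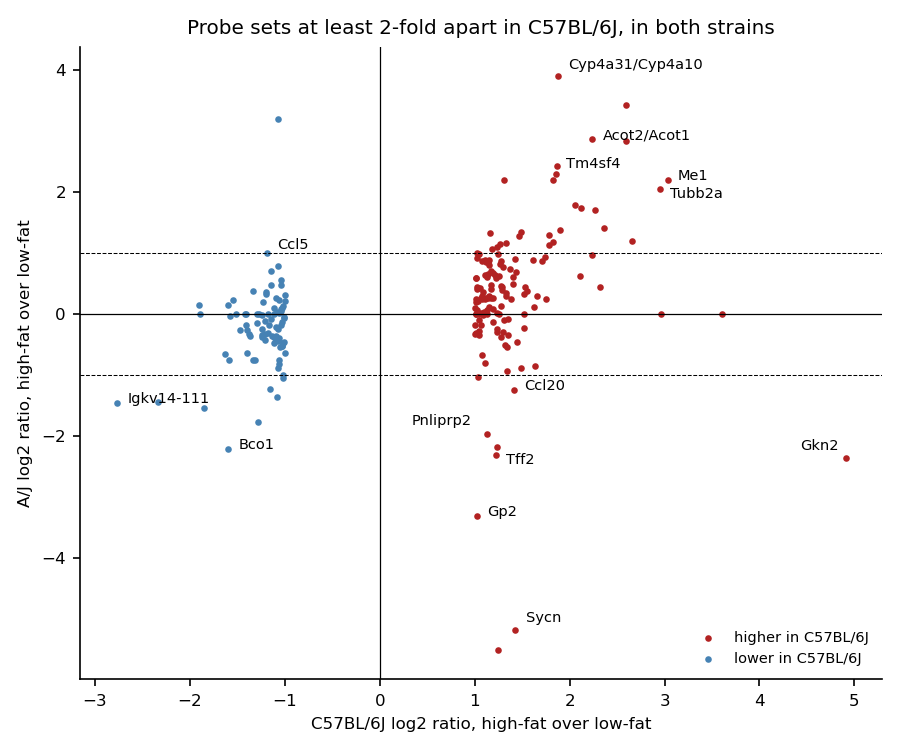
Log2 ratio of high-fat over low-fat in A/J (vertical axis) against that in C57BL/6J (horizontal axis) for the 229 probe sets at least 2-fold apart in C57BL/6J, with dashed lines at 2-fold in A/J. The gap in the middle is made by the choice of probe sets; 26 points lie beyond 2-fold at the upper right, 9 at the lower left, and Sycn, Gp2, Tff2 and Gkn2 lie at the lower right.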

How the data were processed

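Labels' protocols describe 1 Mouse 430A array per group, hybridised with labelled cRNA from the pooled total RNA of 2 mice. Per the labels' protocols, the authors computed an intensity for each probe set from its matched and mismatched oligonucleotides, using Microarray Suite 5.0 with default settings. The deposited intensity values are linear and their scale between arrays is not stated. The trimmed means of the 4 arrays ran from 146.6 to 183.9 and the medians from 43.9 to 57.1.

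From these values each array was scaled so that the mean of its 22626 probe sets that are no AFFX controls, trimmed 2% at each end, was 500. Signals under 100 were set to 100, and log2 ratios were taken of high-fat over low-fat. A probe set counted as above the floor when at least 1 of the 2 C57BL/6J arrays exceeded 100. Genes came from the platform annotation, with symbols updated through RefSeq's gene table (GRCm38.p6): 20380 probe sets had 1 gene, 691 several and 1555 none. A slash joins the genes of a shared probe set. With 1 array a group there was no test and no error, so precision is limited by the number of arrays. Steps were tested on simulated data in Python 3.11.15 with numpy 2.4.6 and pandas 2.3.3.

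Named probe sets were those of the 20 highest and 20 lowest ratios with both sides above the floor, the 10 brightest bounds each way, probe sets at least 2-fold with several genes or on a gene list, the 6 members of a list with the largest ratios, genes whose probe sets agreed at 2-fold or went opposite ways at 1.5-fold, and probe sets opposite between strains. Other values were picked as reference points for a list or gene. The 46 gene lists, the comparison and the rules were chosen with earlier results of these data known. Alternatives were no scaling, quantile normalization, equal medians, floors of 50 and 200, a pseudocount of 50, and leaving out groups of probe sets.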

Additional observations from a re-analysis of the deposited data

Results flagged for a closer look

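Among the 229 probe sets at least 2-fold apart with diet in C57BL/6J, 10 were at least 2-fold apart in the opposite direction in A/J. With 1 pooled array per group in each strain, the difference between the strains was not tested. Of the 10, 6 belong to the exocrine pancreas or stomach lists. The log2 ratios of Sycn were 1.43 and 1.25 in C57BL/6J and -5.19 and -5.52 in A/J. Gp2 gave 1.03 in C57BL/6J and -3.31 in A/J, and Pnliprp2 gave 1.13 and -1.97. The stomach genes Gkn2 and Tff2 gave 4.91 and 1.22 in C57BL/6J, against -2.37 and -2.32 in A/J. Cuzd1, outside both lists, gave 1.24 and -2.19. The chemokine Ccl20 gave 1.41 in C57BL/6J and -1.25 in A/J. Sort1, a sorting receptor, gave 1.03 and -1.05 with 1 of its 3 probe sets. The probe set 1422242_at, which has no gene in the annotation, gave -1.07 in C57BL/6J and 3.19 in A/J. The C57BL/6J value of Gkn2 and the A/J values of Sycn, Gp2, Gkn2, Tff2 and Cuzd1 have a side at the floor and are bounds, so the differences may be larger. Groups of 1 array allow no check for samples far from their group.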

How the results depend on the processing

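No paired analysis was possible because each group has 1 array and the labels give no replicate numbers, and no array could be left out. The counts of 142 higher and 87 lower probe sets became 96 and 170 without scaling, 134 and 90 with quantile normalization, 142 and 88 with equal medians, 281 and 241 with a floor of 50, 94 and 38 with a floor of 200, and 148 and 99 with a pseudocount of 50. They were 130 and 78 over probe sets of 1 gene, 85 and 61 without probe sets whose suffix marks possible cross-hybridisation, and 135 and 87 with the pancreas and stomach lists left out of the scaling and the counts. By 2 alternatives chosen after seeing the data, they were 142 and 87 with a mean signal of at least 100, and 116 and 71 with both arrays above the floor. The first of these could not change the counts, because a probe set counted as 2-fold apart has such a mean by construction. The second only drops the probe sets with a side at the floor. The share of calls that were higher was 62.0% and went to 36.1% without scaling. With the pseudocount, only 105 of the 142 higher and 45 of the 87 lower probe sets were still called. Its similar totals thus hold other probe sets as well. None of the 229 probe sets changed direction under the 6 alternatives run on them. They were chosen at 2-fold or more, and a floor or a pseudocount cannot reverse a ratio, so this is no check of direction. In size, 101 of the 229 log2 ratios moved by at least 0.25 with a floor of 200. With a pseudocount of 50 it was 57, and with a floor of 50 it was 27. All 229 stayed within 0.25 without scaling, with quantile normalization and with equal medians. Leaving out the scaling or using equal medians moves each ratio by at most a constant for the pair of arrays, here under 0.25. For these settings the outcome was thus fixed by the array factors and is no check of single ratios. A lower floor admits dimmer probe sets and a higher one removes them, by construction. Of the list medians larger than 0.25, the median difference between probe sets of a gene, 2 reversed: blood and erythroid, from -0.42 to 0.47 over probe sets of 1 gene and likewise without the suffixed ones, which drops the shared hemoglobin probe sets, and skeletal muscle, with 2 probe sets, from 0.42 to -0.042 without the suffixed ones.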
